A study of Mus musculus with 186 samples.

Results

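Chemokines and their receptors were followed in lung and skin of mice given bleomycin under the skin, a model of scleroderma. The members were the protein-coding genes whose GENCODE M21 symbols begin with Ccl, Cxcl, Cx3cl1, Xcl1, Ccr, Cxcr, Cx3cr1, Xcr1 or Ackr and a number, and 60 of the 22095 gene IDs in the count table met this rule, 37 ligands and 23 receptors. RNA was sequenced from 186 libraries, 93 of lung (the superior lobe) and 93 of skin (a punch biopsy), in 24 groups. All mice were female C57BL/6 of about 12 weeks, and the labels name no transgene or mutation. The bleomycin groups received 10 mg/kg/day subcutaneously into the shaved skin between the shoulder blades, 5 times per week for 2 weeks, and the PBS groups received PBS on the same schedule. Groups taken on days 7 and 14 had no oral treatment. From day 12 the later groups were dosed by mouth, either with SB525334, an inhibitor of the TGF-beta type I receptor kinase ALK5, at 30 mpk given BID, or with its vehicle. The last oral dose was on day 27, and both groups of day 42 had received vehicle only. In each tissue the bleomycin and PBS groups held 7 and 8 libraries on day 7, and 8 and 8 on day 14. Day 21 had 9 libraries of bleomycin with SB525334, 7 of bleomycin with vehicle and 8 of PBS with vehicle. Day 28 had 8, 7 and 7 libraries of these groups in that order, and day 42 had 8 of bleomycin and 8 of PBS. Every SB525334 group had received bleomycin. Replicates are numbered in the labels without a statement that each is a separate mouse, so the p-values measure the spread between these libraries.

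Chemokines are small secreted proteins that steer the migration of leukocytes through G protein-coupled receptors, and they are sorted by the spacing of conserved cysteines into CC, CXC, CX3C and XC families. Most receptors bind several ligands, so that monocytes, neutrophils, T cells and dendritic cells each answer to an overlapping set. Atypical receptors (Ackr genes) bind chemokines without G protein signalling and take them up, transport them or hold them at a surface. In lung and skin, these molecules are known for recruiting leukocytes after injury and for the traffic of dendritic cells and lymphocytes into lymph vessels.

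The libraries held 4.79 to 38.34 M (mega) counts in lung and 14.68 to 43.07 M in skin. Levels are given as CPM, read counts per M of the TMM-scaled library total, as lowest, median and highest library of a group. A gene was called when the Benjamini-Hochberg adjusted p of edgeR's quasi-likelihood test, taken over all genes tested in the tissue, was below 0.05, and "rose" and "fell" are used for genes called higher and lower. Fold changes are log2 values with their standard error (SE). After the filter on low counts 54 members were tested in lung and 53 in skin. Ccl21b, Ccl26, Ccr10 and Ccr1l1 were tested in neither tissue, Ccl1 and Ccl27b in skin only, and Cxcl17, Cxcr1 and Cxcr5 in lung only. Bulk RNA was measured, so fewer cells of a type and less RNA per cell cannot be told apart.

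Several libraries stood apart. The lung library labelled bleomycin with vehicle, day 28, replicate 6 held 5.28 CPM of Eda2r, 158 CPM of Ccng1 and 0.862 CPM of Gdf15. These are targets of the DNA damage regulator p53, chosen here after their values were seen, and this library lay within the PBS range for each, whereas the other bleomycin lungs of day 28 lay above every PBS lung. It also lay within the PBS range for 18 of the 20 members called in lung on day 28. That range is widened by PBS replicate 6 of that day, at 38.8 CPM of Ccr1 against 11.6 to 20.1 CPM in the other PBS lungs. Other bleomycin lungs of that day, from 23.5 CPM of Ccr1, also reached into it. The count of 18 therefore does not set this library apart by itself. The lung library labelled PBS, day 28, replicate 6 had 1460 CPM of summed macrophage markers, against 485 to 652 CPM in the other PBS lungs of that day. In skin, the library labelled PBS, day 14, replicate 4 had the highest Eda2r, Ccng1 and Gdf15 of its group. It held 38.7, 231 and 2.78 CPM, against at most 19.8, 211 and 0.729 CPM in the other PBS skin of that day. The lowest values in bleomycin skin of that day were 43.2, 294 and 1.17 CPM, so only its Gdf15 level reached the bleomycin range. The skin library labelled PBS, day 7, replicate 8 held 43.8 CPM of Eda2r and 428 CPM of Ccng1, against at most 21.1 and 285 CPM in the other PBS skin of that day, but 0.218 CPM of Gdf15. Its skeletal muscle markers summed to 13200 CPM, against 2490 to 7540 CPM in the others. A further set of 18 lung and 6 skin libraries held transcripts of another tissue, of the ribosomal protein genes or of the Gm10800 repeat in large amounts, and the results were also computed without them.

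The promoters of 4 members that the results below turn on are shown, because they hold sequence motifs of regulators known to drive these genes in inflammation. Promoter windows of 250 bases before the RefSeq start site (GRCm38.p6) were found for 46 of the 60 members. The windows lie at chr5:90890995-90891244 (plus strand) for Cxcl1, chr5:90903649-90903898 (plus strand) for Cxcl2, chr5:90785851-90786100 (plus strand) for Cxcl3 and chr5:92348890-92349139 (minus strand) for Cxcl10, and each is written 5′ to 3′ on the strand of its gene. Capitals mark matches on either strand to the NF-kB motif (GGG, then NN for any bases, then TTTCC) in Cxcl1, Cxcl2 and Cxcl3, and to the interferon response motif (GAAA, then NN, then GAAA) in Cxcl10.
Cxcl1: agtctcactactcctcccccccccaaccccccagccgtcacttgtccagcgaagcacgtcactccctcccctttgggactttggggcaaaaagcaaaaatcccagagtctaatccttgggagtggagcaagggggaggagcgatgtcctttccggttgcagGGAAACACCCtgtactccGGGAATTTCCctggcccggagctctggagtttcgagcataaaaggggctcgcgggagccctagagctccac
Cxcl2: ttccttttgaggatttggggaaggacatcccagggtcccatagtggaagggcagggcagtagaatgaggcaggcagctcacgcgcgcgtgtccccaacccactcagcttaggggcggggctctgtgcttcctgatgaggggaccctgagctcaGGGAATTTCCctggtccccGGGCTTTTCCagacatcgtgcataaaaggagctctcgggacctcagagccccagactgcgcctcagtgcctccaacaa
Cxcl3: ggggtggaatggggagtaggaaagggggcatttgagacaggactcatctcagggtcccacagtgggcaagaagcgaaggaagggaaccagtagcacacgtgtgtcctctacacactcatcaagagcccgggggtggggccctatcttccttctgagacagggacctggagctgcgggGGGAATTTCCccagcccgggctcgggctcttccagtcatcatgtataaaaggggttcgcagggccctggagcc
Cxcl10: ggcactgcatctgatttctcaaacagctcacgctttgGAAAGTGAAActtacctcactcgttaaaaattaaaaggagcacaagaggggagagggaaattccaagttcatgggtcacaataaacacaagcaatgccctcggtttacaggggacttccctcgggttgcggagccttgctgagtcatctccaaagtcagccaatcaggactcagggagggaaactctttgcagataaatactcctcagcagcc
The matches began 89 bases (on the opposite strand) and 71 bases before the start in Cxcl1, 97 and 78 bases before it in Cxcl2, 73 bases before it in Cxcl3 and 213 bases before it in Cxcl10. The NF-kB motif was present in 6 of the 46 members with a window (Ccl20, Ccl9, Ccr3, Cxcl1, Cxcl2 and Cxcl3) and in 447 of all 27025 genes with one, or 1.65%. The interferon response motif was present in 3 of these members (Ccl19, Cxcl10 and Cxcl14) and in 936 of these genes, or 3.46%. A match is a description of the letters, and binding was not measured.

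The members with the highest level per kilobase of exon length were not the same in lung and skin. In lungs of PBS mice on day 14, Cxcl15, a lung epithelial chemokine of the neutrophil-attracting type, had the highest mean, and it averaged 664 CPM per kilobase in bleomycin lungs. Ccl6, a ligand made by macrophages and other myeloid cells, followed in PBS lungs at 90.4 CPM per kilobase, and Ccl21a, which guides dendritic cells into lymph vessels, at 50.9. In skin of PBS mice on that day Ccl8 led. This monocyte attractant that in mice also acts on CCR8 averaged 198 CPM per kilobase, Ccl21a 95.6 and the eosinophil attractant Ccl11 90.7. Ccl21a and Ccl21b, and Ccl27a and Ccl27b, are near-identical copies, so the split of counts between them is uncertain. A further 9 members share exon sequence with another gene, and the strand setting of the counting is not given in the sources used here. Calls that a member shared in direction with its overlapping gene are uncertain. In skin these were Cxcl16 (with Zmynd15) on days 7, 14 and 21, Ccr9 (with Slc6a20a) on days 14 and 21 and under SB525334 on both days, and Cxcl10 (with Art3) on day 21, when Art3 changed by 0.80. The same held in skin for Ackr1 (with Cadm3) on days 7, 14 and 28 and for Ackr4 (with Acad11) on day 28, in both comparisons. In lung they were Cxcl16 on days 14, 28 and 42, Ackr1 on day 42 and Ccl27a (with Il11ra1) on days 7 and 14.

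**Figure D1:**
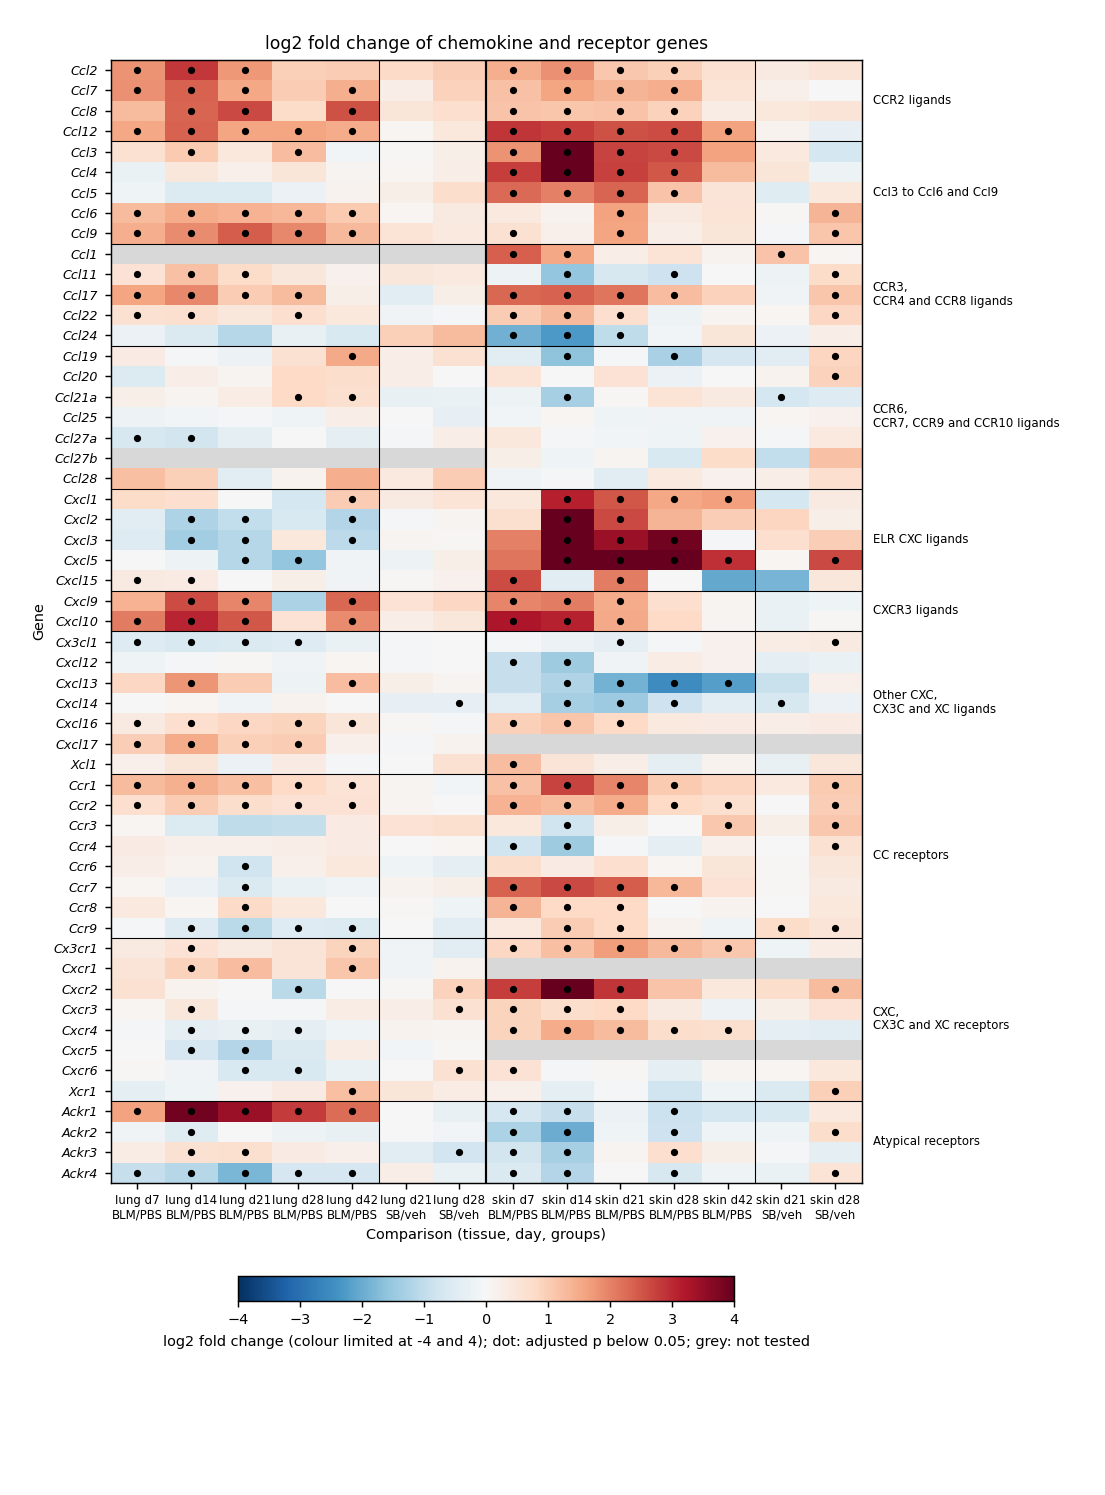
Log2 fold changes of members in each comparison, with genes down the page by role and comparisons across, lung on the left and skin on the right. Colour is limited at −4 and 4 on the log2 scale, a dot marks an adjusted p below 0.05 and grey marks a member that was not tested in that tissue; calls in red are most numerous in skin on days 7, 14 and 21, where Cxcl2, at 7.85 on day 14, lies past the colour limit.

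In lung, monocyte attractants, CXCR3 ligands, and receptors carried by monocytes and macrophages rose after bleomycin, while Ackr4, Cx3cl1 and some neutrophil attractants and lymphocyte receptors fell. On day 7, 16 members rose and 3 fell, 35.2% of the members tested, against 31.7% of all 15647 genes (13.9% higher and 17.8% lower). The share called was thus little above that of all genes. On day 14, 24 rose and 9 fell, 61.1% of the members tested against 46.4% of all genes (21.0% higher and 25.4% lower), and 20 of these 33 changed at least 2-fold. On day 21, 19 rose and 11 fell, 55.6% of the members against 35.3% of all genes (15.9% higher and 19.4% lower). On day 28, 13 rose and 7 fell, 37.0% against 38.1% (19.7% higher and 18.4% lower), a share close to that of all genes. On day 42, 19 rose and 4 fell, 42.6% against 19.4% (12.6% higher and 6.77% lower). The median log2 fold change of the members was 0.32, 0.39, 0.15, 0.32 and 0.31 on days 7, 14, 21, 28 and 42, whereas the median over all genes lay between -0.03 and 0.02. Over the 5 days, 29 lung members rose on at least 1 day, 14 fell on at least 1 day, none did both, and 11 were called on no day. No share of all genes is given for these counts or for the 2-fold count of day 14, so they are descriptions only. Libraries were made on 2 plates, and every member called on days 7, 14 and 21 had the same sign on both, as did 21 of the 23 called on day 42, all but Cxcl13 and Ccl19. On day 14, plate 1 held only replicate 1 of each group, so the sign there rests on 1 library against 1. The signs come from the same libraries as the calls, so they are no separate check, here or in skin. No share of all genes is given for them.

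The ligands of CCR2, the receptor that draws monocytes out of blood, rose together. All 4 of Ccl2, Ccl7, Ccl8 and Ccl12 rose on days 14 and 21, and 3 of them on days 7 and 42. On day 14 their log2 fold changes were 2.84 ± 0.44 for Ccl2, 2.37 ± 0.42 for Ccl7, 2.34 ± 0.57 for Ccl8 and 2.35 ± 0.39 for Ccl12. Without replicate 3 of the PBS group, which had the highest Ccl9 of its group, Ccl2 came to 3.5 ± 0.45 on that day. Ccl12 rose on all 5 days, by at least 1.47. Ccr2 itself had 80.3, 108 and 131 CPM (lowest, median and highest) in bleomycin lungs of day 14, against 41.6, 53.8 and 76.6 CPM in PBS lungs. The groups did not overlap, and Ccr2 rose by 1.00 ± 0.15 (edgeR adjusted p = 3.52e-08). It also rose on each other day, by 0.59 to 0.69.

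Among Ccl3, Ccl4, Ccl5, Ccl6 and Ccl9, which attract monocytes, macrophages and T cells, Ccl6 and Ccl9 rose on all 5 days, and Ccl4 and Ccl5 were called on none. Ccl9 had 69.2, 102 and 130 CPM in bleomycin lungs of day 21, against 15.0, 19.5 and 23.9 CPM in PBS lungs. Every bleomycin lung was above every PBS lung, with a log2 fold change of 2.41 ± 0.29 (edgeR adjusted p = 1.56e-10). Ccl6 changed by 1.48 ± 0.22 on day 14 and 1.05 ± 0.22 on day 42. Ccl3 rose on days 14 and 28, by 1.04 ± 0.29 and 1.23 ± 0.32.

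Ccr1, a receptor of several of these ligands on monocytes and macrophages, had 28.8, 41.6 and 44.3 CPM in bleomycin lungs of day 14, against 10.4, 12.9 and 27.1 CPM in PBS lungs, without overlap. Its log2 fold change of 1.43 ± 0.17 (edgeR adjusted p = 6.87e-11) compares with 0.56 ± 0.17 on day 42. Of the other CC receptors, Ccr9, the receptor for Ccl25, fell on days 14 to 42, by 0.51 to 1.08, and Ccr6 and Ccr7 fell on day 21 only, by 0.81 ± 0.30 and 0.57 ± 0.16. Cxcr5, the B cell receptor for Cxcl13, fell on days 14 and 21 by 0.66 ± 0.27 and 1.16 ± 0.27. Lymphocyte markers moved with them on day 21, when 4 of 5 T cell markers tested and 5 of 5 B cell markers fell. The B cell markers summed to 57.8 to 107 CPM in bleomycin lungs of that day, against 148 to 310 CPM in PBS lungs. Macrophage markers moved with these members: all 6 of 6 (Adgre1, Cd68, Csf1r, Mrc1, Msr1 and Ctss) rose on days 14, 21 and 42. Their summed level was 1070 to 1570 CPM in bleomycin lungs of day 14, against 456 to 700 CPM in PBS lungs, and none was at 0. Monocyte markers rose in 2 and 3 of 5 on days 7 and 14, and later in 0 of 5, with 1, 2 and 1 fallen on days 21, 28 and 42. Their sum on day 42 was 426 to 567 CPM in bleomycin lungs and 524 to 835 CPM in PBS lungs. Alveolar macrophage markers did not follow them, and 5 of 5 fell on days 28 and 42. That list shares Chil3 with the monocyte list, so the 1 monocyte marker fallen on day 42 was Chil3. The part of these cells in the results was not tested.

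The CXCR3 ligands Cxcl9 and Cxcl10, which interferon induces and which attract T and NK cells, both rose on days 14, 21 and 42. Cxcl10 had 8.45, 12.6 and 16.9 CPM in bleomycin lungs of day 14, against 0.664, 1.32 and 2.40 CPM in PBS lungs. No library crossed between the groups, and the log2 fold change was 3.06 ± 0.42 (edgeR adjusted p = 4.98e-09). Cxcl9 changed by 2.60 ± 0.63 on that day. Of the T cell markers, 0 of 5 tested were called on day 14, with summed levels of 17.2 to 25.2 CPM in bleomycin lungs and 13.8 to 27.0 CPM in PBS lungs. NK cell markers fell in 4 of 4 on days 14 and 21 and in 3 of 4 on day 28. Their sum on day 14 was 22.6 to 50.5 CPM in bleomycin lungs and 34.9 to 59.6 CPM in PBS lungs. How T and NK cells relate to these ligands was not tested.

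The neutrophil attractants with an ELR sequence before the first cysteines moved in both directions. Cxcl2 fell by 1.25 ± 0.30 on day 14, 0.99 ± 0.30 on day 21 and 1.18 ± 0.32 on day 42, and Cxcl3 fell on the same days by 1.40 ± 0.33, 1.13 ± 0.35 and 1.04 ± 0.39. Cxcl5 fell on days 21 and 28, whereas Cxcl15 rose on days 7 and 14 by 0.37 ± 0.14 and 0.34 ± 0.13 and Cxcl1 on day 42 by 1.01 ± 0.35. The neutrophil markers had 1 of 5 tested called on day 14, and it rose. Their summed level was 54.7 to 122 CPM in bleomycin lungs of day 14, against 21.3 to 179 CPM in PBS lungs. How neutrophils relate to these ligands was not tested.

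Cxcl17, a chemokine of mucosal surfaces, had 32.1, 39.8 and 44.0 CPM in bleomycin lungs of day 14, against 12.2, 13.7 and 15.8 CPM in PBS lungs. The groups were far apart, and Cxcl17 rose by 1.48 ± 0.18 (edgeR adjusted p = 2.13e-10) on day 14 and also on days 7, 21 and 28, but was not called on day 42, at 0.21 ± 0.18. Without the 18 lung libraries set apart above, it was called on day 42 too, at 0.34 ± 0.12. Of the lung epithelium markers, 0 of 6 rose and 1 fell on day 14, and the part of these cells in Cxcl17 was not tested. Of the other CXC and CX3C ligands, Cxcl16, the ligand of Cxcr6, rose on all 5 days by 0.35 to 0.90. The overlapping gene Zmynd15 changed by 0.37, 0.39 and 0.61 on days 14, 28 and 42. The Cxcl16 call of day 7 was lost without the 18 lung libraries set apart above. Cx3cl1, the membrane-bound ligand of Cx3cr1, fell on days 7 to 28 by 0.51 to 0.61. Cxcl12, the stromal ligand of Cxcr4 that holds leukocytes in tissues and bone marrow, was called on no day, and Cxcr4 fell on days 14, 21 and 28 by 0.30 to 0.37.

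The atypical receptor Ackr1, which venular endothelium and red cells use to bind inflammatory chemokines, had the largest lung log2 fold change among the 54 members on each of days 14, 21 and 28. It had 2.32, 3.33 and 5.07 CPM in bleomycin lungs of day 14, against 0.0487, 0.250 and 0.471 CPM in PBS lungs. The lowest bleomycin lung was well above the highest PBS lung, with a log2 fold change of 3.85 ± 0.43 (edgeR adjusted p = 4.75e-12). It rose on all 5 days, by 1.60 ± 0.42 on day 7 and 2.23 ± 0.45 on day 42. Blood endothelium markers went down while Ackr1 rose, with 4 of 4 (Pecam1, Cdh5, Kdr and Tek) fallen on day 14 and summed levels of 1470 to 1970 CPM in bleomycin lungs and 2060 to 2780 CPM in PBS lungs. None of the 5 red cell markers was called on that day. The part of these cells in the level of Ackr1 was not tested. Ackr1 shares exon sequence with Cadm3 on the same strand, and Cadm3 was not called on day 14, at -0.39 ± 0.37, but rose on day 42 by 1.04 ± 0.38. Ackr4, a scavenger of Ccl19, Ccl21 and Ccl25, fell on all 5 days. It had 1.54, 1.78 and 2.49 CPM in bleomycin lungs of day 21, against 5.36, 7.35 and 8.63 CPM in PBS lungs, without overlap, and the log2 fold change was -1.84 ± 0.23 (edgeR adjusted p = 1.02e-09). Ackr3, a scavenger of Cxcl12, rose on days 14 and 21 by 0.60 ± 0.13 and 0.65 ± 0.14.

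**Figure D2:**
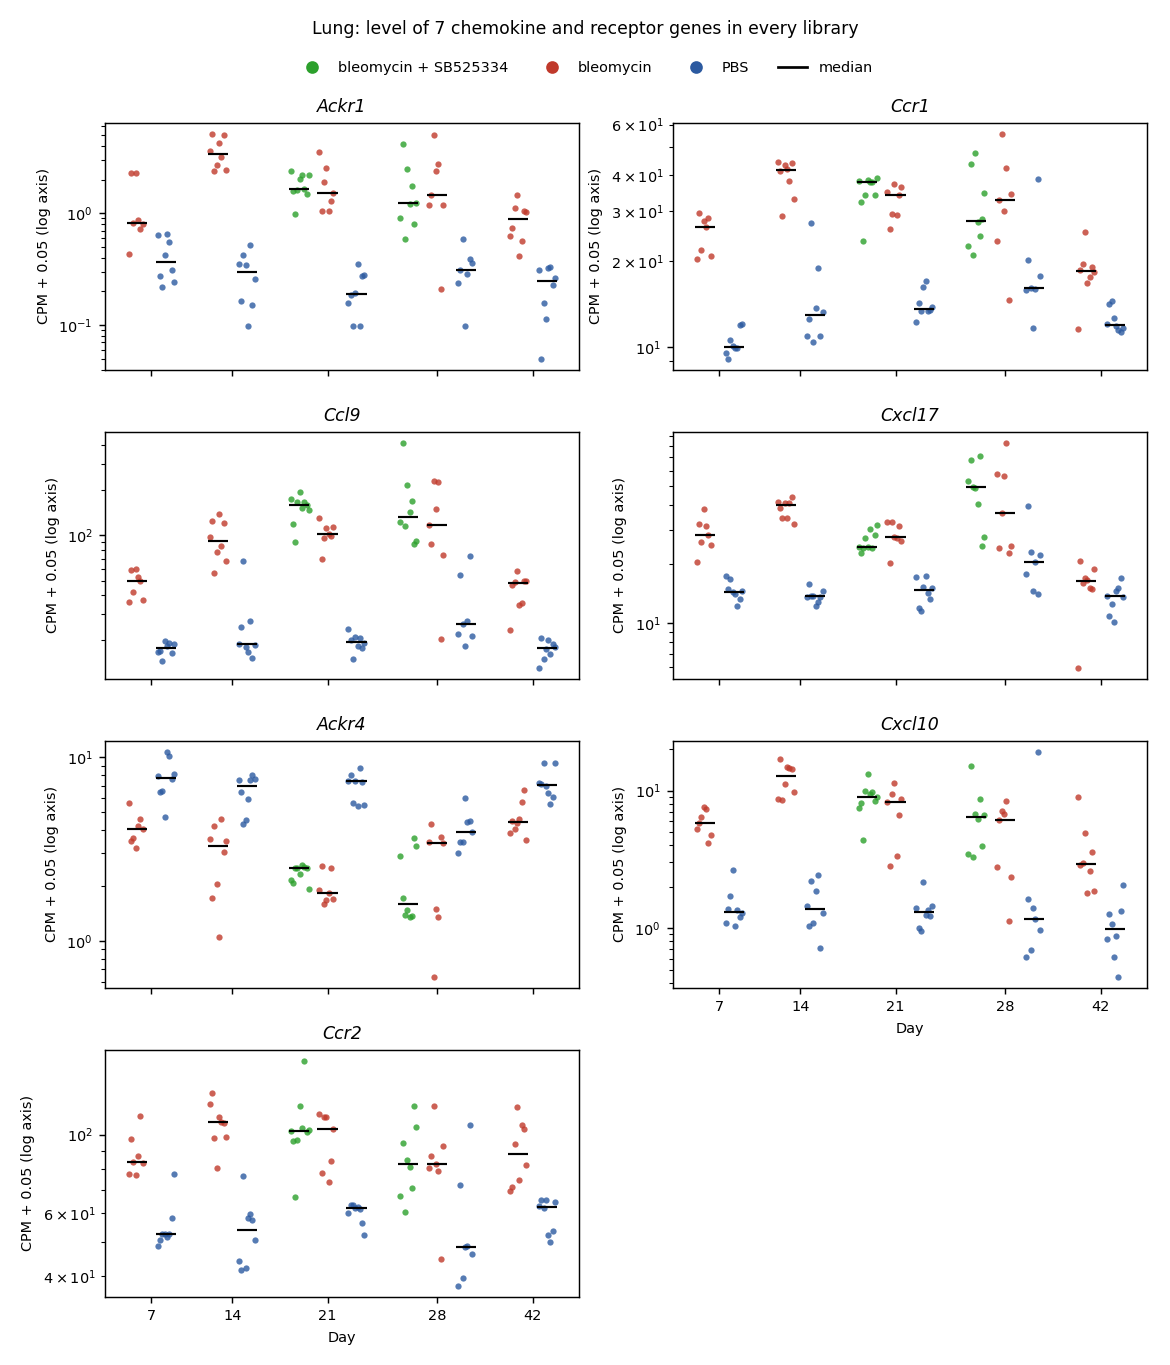
TMM-scaled CPM (plus 0.05, log axis) of 7 lung members in every library by day, with SB525334 in green, bleomycin in red, PBS in blue and a black bar at the median of each group. Ackr1 on day 14 lies at 2.32 to 5.07 CPM in bleomycin lungs, above all PBS lungs, and on day 28 single libraries of both groups cross over.

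On day 28 the lung values varied by library and plate. None of its 20 called members had separate groups, and 9 of the 20 had opposite signs on the 2 plates. No share of all genes is given for these counts, so they are descriptions only. Ccl9 differed by 2.47 on plate 1 and by -0.03 on plate 2. Both replicate 6 libraries described above were on plate 2. Without the bleomycin one, 26 members were called, 18 up and 8 down, all 20 of the original among them. Without the PBS one, 26 were also called, 20 up and 6 down. Cxcl10 was then at 2.31 ± 0.38 (edgeR adjusted p = 2.93e-06), against 0.57 ± 0.44 with all libraries, and Cxcl9 was at 2.06 ± 0.54, against -1.26 ± 0.66 with all libraries and not called. Ccl12 came to 2.28 ± 0.43 without that library, against 1.59 ± 0.42 with it. Ccl2, Ccl7 and Ccl8 were called without it, at 2.12 ± 0.45, 1.90 ± 0.46 and 1.80 ± 0.62, and Cxcl5 lost its call, at -0.54 ± 0.44 against -1.54 ± 0.47. Leaving out the libraries with foreign, ribosomal protein or Gm10800 transcripts gave 18 called members, of which 14 were shared. Ackr4, Ccl12, Ccl21a, Ccl3, Cx3cl1 and Cxcr4 lost their calls. This took out replicates 1, 2, 4 and 5 of the bleomycin group with vehicle. Its replicates 3, 6 and 7 remained, so few libraries carry that result, and replicate 6 described above is among them. On day 42, replicate 1 of the bleomycin group carried 17500 CPM of liver markers and 672 CPM of B cell markers. Ccl19, which with Ccl21 guides cells bearing Ccr7, rose by 1.53 ± 0.37 on day 42 with this library and stood at 0.17 ± 0.28 without it. Cxcl13, the B cell attractant, stood at 1.23 ± 0.41 with it and 0.23 ± 0.36 without it, and Cxcl9 at 2.29 ± 0.63 and 1.13 ± 0.61. Cxcl1 and Cxcl3 also lost their calls without that library, and 18 of the 23 members remained called.

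In skin, the injected tissue, neutrophil attractants, monocyte attractants and interferon-induced ligands rose strongly, while Cxcl12 and the atypical receptors fell early. On day 7, 26 members rose and 7 fell, 62.3% of the members tested, against 46.2% of all 15825 genes (25.5% higher and 20.7% lower). On day 14, 27 rose and 13 fell, 75.5% against 59.6% (31.5% higher and 28.1% lower), and 36 of the 40 changed at least 2-fold. On day 21, 29 rose and 4 fell, 62.3% against 41.2% (20.2% higher and 21.0% lower). On day 28, 18 rose and 7 fell, 47.2% against 24.3% (12.7% higher and 11.6% lower). On day 42, 8 rose and 1 fell, 17.0% against 10.2% (5.28% higher and 4.96% lower). The median member log2 fold change was 0.71, 0.70, 0.80, 0.35 and 0.23 on days 7, 14, 21, 28 and 42, and that of all genes lay between -0.04 and 0.02. Over the 5 days, 34 skin members rose at least once, 14 fell at least once and 7 were never called. Ackr3 and Ccr3 did both. For these counts and the 2-fold count of day 14 no share of all genes is given, so they are descriptions only. Ccl12, Cxcr4, Cx3cr1 and Ccr2 were among those that rose on all 5 days. On days 7, 14, 28 and 42 every called member had the same sign on both plates, and on day 21 Ccl24 and Cxcl15 did not.

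The ELR ligands led the skin changes on day 14, when 4 of 5 rose and their median log2 fold change was 5.35, and on day 21, when all 5 rose. Cxcl2, made by macrophages and neutrophils and carrying a pair of NF-kB motifs in the promoter shown above, had 0.874, 30.4 and 447 CPM in bleomycin skin of day 14, against 0.0602, 0.168 and 0.894 CPM in PBS skin. The groups overlapped only in the lowest bleomycin and the highest PBS library, and the log2 fold change was 7.85 ± 0.98 (edgeR adjusted p = 1.23e-10). The highest value belonged to replicate 6, without which the log2 fold change was 6.41 ± 0.87. Cxcl3 rose by 7.01 ± 0.93 with that library and 5.91 ± 0.88 without it, and Cxcl1 by 3.10 ± 0.49 and 2.75 ± 0.49. Cxcl5, made mainly by epithelial and stromal cells, rose by 5.35 ± 1.08 on day 14 and 7.30 ± 1.00 on day 21, and was still up by 2.93 ± 0.90 on day 42. Without replicate 4 of the bleomycin group of day 21, Cxcl5 came to 6.32 ± 0.97 on day 21, while Cxcl2 (2.63 ± 0.78 with that library) and Cxcl3 (3.45 ± 0.92) were no longer called, at 1.49 ± 0.79 and 2.21 ± 0.98. The fifth ELR ligand, Cxcl15, was called on days 7 and 21, when lung epithelium markers were up in skin (6 of 6 on day 7 and 5 of 6 on day 21), and it lost both calls without the 6 skin libraries set apart above.

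Cxcr2, the neutrophil receptor of the ELR ligands, had 7.87, 16.0 and 50.2 CPM in bleomycin skin of day 14, against 0.392, 1.14 and 1.89 CPM in PBS skin. The groups were separate, at 3.97 ± 0.50 (edgeR adjusted p = 1.82e-10). It rose also on days 7 and 21, by 2.78 ± 0.48 and 2.86 ± 0.49, the last at 1.85 ± 0.45 without replicate 4 of the bleomycin group. Neutrophil markers moved with these members. All 4 of the 4 tested, of 6 listed, rose on day 14, with a summed level of 69.4, 487 and 1330 CPM in bleomycin skin and 1.57, 3.39 and 10.4 CPM in PBS skin, and Ly6g was at 0 in every PBS skin library. The highest sum was that of replicate 6. The part of these cells in the result was not tested.

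**Figure D3:**
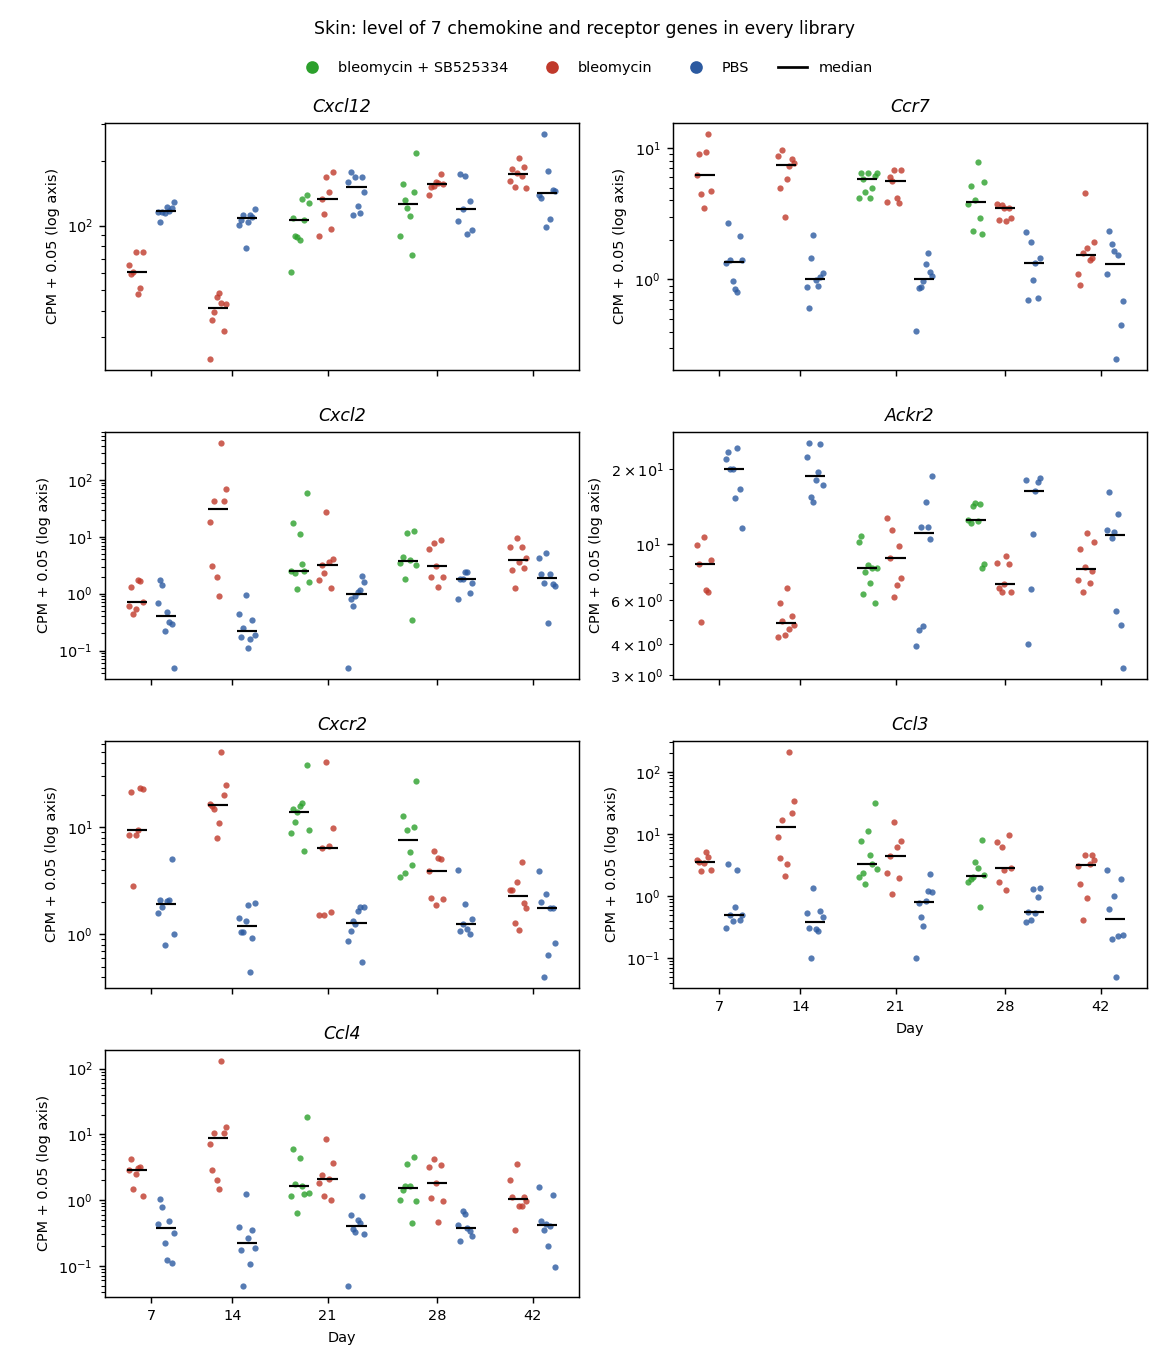
TMM-scaled CPM (plus 0.05, log axis) of 7 skin members in every library by day, with SB525334 in green, bleomycin in red, PBS in blue and a black bar at the median of each group. Cxcl12 and Ackr2 have lower medians in bleomycin than in PBS skin on days 7 and 14, and Ackr2 in SB525334 skin of day 28, at 8.02 to 14.6 CPM, overlaps the vehicle group slightly.

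Ccl3 and Ccl4, made by activated macrophages and other leukocytes, rose on days 7, 14, 21 and 28, although Ccl3 lost its call of day 7 without PBS replicate 8, at 1.62 ± 0.71 against 1.80 ± 0.68. Ccl3 had 2.08, 12.7 and 211 CPM in bleomycin skin of day 14, against 0.0503, 0.327 and 1.32 CPM in PBS skin. Its groups did not overlap, at 6.03 ± 0.77 (edgeR adjusted p = 2.87e-10), or 4.73 ± 0.68 without bleomycin replicate 6. Ccl4 had 1.41, 8.69 and 131 CPM in bleomycin skin of that day, against 0, 0.173 and 1.18 CPM in PBS skin. These groups were also separate, at 6.05 ± 0.78 (edgeR adjusted p = 3.91e-10), or 4.43 ± 0.66 without replicate 6. Leaving out PBS replicate 4 instead raised Ccl3 to 6.68 ± 0.84, Ccl4 to 6.89 ± 0.86 and Cxcl2 to 8.51 ± 1.08. Ccl5, a T cell product, rose on days 7 to 28, by 2.02 ± 0.38 on day 14. Ccl6 and Ccl9, which rose on every day in lung, were called in skin on day 21 (1.61 ± 0.27 and 1.57 ± 0.24), and Ccl9 also on day 7.

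All 4 CCR2 ligands rose in skin on days 7, 14, 21 and 28. Ccl12 was the largest of them, with 2.87 ± 0.38, 2.77 ± 0.36, 2.55 ± 0.37 and 2.60 ± 0.39 on these days and 1.62 ± 0.35 on day 42. Ccl2 rose by 1.84 ± 0.34 on day 14, or 2.49 ± 0.33 without PBS replicate 4. Cxcl10 and Cxcl9 rose on days 7, 14 and 21, Cxcl10 by 3.24 ± 0.42, 3.07 ± 0.41 and 1.52 ± 0.41, and without PBS replicate 4 Cxcl10 stood at 4.01 ± 0.40 on day 14. Of the CCR4 ligands, Ccl17 rose on days 7 to 28, by 2.35 ± 0.42 on day 14, and Ccl22 on days 7 to 21. Ccl1, the ligand of Ccr8, rose on days 7 and 14 by 2.40 ± 0.42 and 1.54 ± 0.41. The eotaxins, which recruit eosinophils through Ccr3, fell: Ccl24 by 2.30 ± 0.37 and Ccl11 by 1.55 ± 0.27 on day 14.

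Ccr7, by which mature dendritic cells and lymphocytes follow Ccl19 and Ccl21, had 2.92, 7.44 and 9.54 CPM in bleomycin skin of day 14, against 0.560, 0.967 and 2.12 CPM in PBS skin. It rose by 2.64 ± 0.31 (edgeR adjusted p = 3.29e-11) without overlap, and on days 7, 21 and 28 too, but was not called on day 42, at 0.59 ± 0.31. Its ligands went the other way on day 14, when Ccl19 fell by 1.61 ± 0.28 and Ccl21a by 1.32 ± 0.23. Ccr1 rose by 2.70 ± 0.36 on day 14, or 2.04 ± 0.32 without bleomycin replicate 6. Ccr4, a receptor of skin-homing T cells, fell by 1.41 ± 0.22 on that day. Macrophage markers rose in 5 of 6 on day 14, with sums of 1330 to 1920 CPM in bleomycin skin and 883 to 1440 CPM in PBS skin, T cell markers in 3 of 5 tested, and monocyte markers rose in 4 and fell in 1 of 5. Their part in the receptor levels was not tested.

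Cxcl12 had 23.8, 41.3 and 48.6 CPM in bleomycin skin of day 14, against 78.7, 108 and 119 CPM in PBS skin. Every bleomycin library was below every PBS library, and Cxcl12 fell by 1.43 ± 0.16 on the log2 scale (edgeR adjusted p = 2.50e-12), and by 0.91 ± 0.16 on day 7. It was not called on days 21, 28 and 42, at -0.15 ± 0.16, 0.30 ± 0.17 and 0.18 ± 0.15. Its receptor Cxcr4 rose on all 5 days, by 0.64 to 1.49. Fibroblast markers (Pdgfra, Col1a1, Dcn and Lum) fell in 4 of 4 on day 14, with sums of 745 to 1640 CPM in bleomycin skin and 3720 to 5300 CPM in PBS skin, and rose in 2 of 4 on day 21. None of them was at 0, and their part in the level of Cxcl12 was not tested. Cxcl14, which keratinocytes and fibroblasts make, fell on days 14, 21 and 28, by 0.82 to 1.44. Cxcl13 fell on days 14 to 42, by 1.19 to 2.53.

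All 4 atypical receptors fell in skin on days 7 and 14, and on day 28 Ackr1, Ackr2 and Ackr4 fell while Ackr3 rose by 0.66 ± 0.19. Ackr2, which lymphatic endothelium uses to degrade inflammatory CC chemokines, had 4.23, 4.79 and 6.66 CPM in bleomycin skin of day 14, against 14.7, 18.7 and 25.4 CPM in PBS skin. The groups were separate, and Ackr2 fell by 1.97 ± 0.25 (edgeR adjusted p = 1.81e-10). Ackr3, Ackr4 and Ackr1 fell by 1.32 ± 0.18, 1.16 ± 0.20 and 0.93 ± 0.24 on that day. Cadm3, which shares exon sequence with Ackr1, changed by -2.80 ± 0.31 on that day, so that the skin value of Ackr1 is uncertain. Markers of lymphatic endothelium fell in 3 and rose in 1 of 4 on day 14, with sums of 60.9 to 106 CPM in bleomycin skin and 83.5 to 126 CPM in PBS skin. None was at 0 in a whole group, and their part was not tested. Without the 6 skin libraries set apart above, Ackr1 and Ackr4 lost their calls of day 7.

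SB525334 was given to ask what blocking ALK5, and with it TGF-beta signalling, changes after bleomycin. The vehicle libraries of this comparison are also the bleomycin libraries of the comparison with PBS on the same day, so both log2 fold changes are given side by side and no overlap between them is counted. In lung, 0 of 54 members were called on day 21 by edgeR's quasi-likelihood test, and 0.403% of all genes were (0.179% higher and 0.224% lower). At an unadjusted p below 0.05 there were 6 members, and DESeq2 also called 0. On day 28, 3 rose and 2 fell, 9.26% of the members against 8.37% of all genes (2.64% higher and 5.73% lower), a share close to the background. Cxcr2 rose by 0.93 ± 0.29 (-1.07 ± 0.30 for bleomycin over PBS on that day), and Cxcr6 and Cxcr3, receptors of T and NK cells, rose by 0.60 ± 0.16 and 0.60 ± 0.17 (-0.61 ± 0.16 and -0.07 ± 0.18). Ackr3 fell by 0.77 ± 0.14 (0.32 ± 0.14), and Cxcl14 by 0.34 ± 0.12 (0.14 ± 0.12). Neutrophil markers rose in 3 of 5 tested, with sums of 135, 339 and 1200 CPM in SB525334 lungs and 34.1, 60.8 and 377 CPM in vehicle lungs, beside Cxcr2. NK cell markers rose in 2 of 4 and T cell markers in 1 of 5 tested beside Cxcr6 and Cxcr3, with NK sums of 47.7 to 87.1 CPM in SB525334 lungs and 10.4 to 61.1 CPM in vehicle lungs. Lymphatic endothelium markers fell in 3 of 4 beside Ackr3, with sums of 267 to 360 CPM in SB525334 lungs and 287 to 552 CPM in vehicle lungs. The part of these cells was not tested. Without the libraries with foreign, ribosomal protein or Gm10800 transcripts, only Ackr3 was called. Those libraries include 6 of the 8 SB525334 lungs of day 28, and vehicle replicates 1, 2, 4 and 5. That fit therefore set SB525334 replicates 7 and 8 against vehicle replicates 3, 6 and 7. Cxcl14 lost its call without bleomycin vehicle replicate 6, and likewise without SB525334 replicate 2.

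In skin, SB525334 was followed by higher levels of many members on day 28 and by few changes on day 21. On day 21, 2 rose and 2 fell, 7.55% of the members against 11.8% of all genes (5.81% higher and 6.02% lower). These were Ccl1 by 1.14 ± 0.39 and Ccr9 by 0.72 ± 0.19 upwards, Cxcl14 by 0.64 ± 0.19 and Ccl21a by 0.71 ± 0.23 downwards. Ccl1 and Ccl21a lost their calls without SB525334 replicate 8, and Ccl1 without vehicle replicate 4, when Cxcr2 was called at 1.67 ± 0.44, against 0.69 ± 0.44 with all libraries. Without the 6 skin libraries set apart above, Ccl1, Ccl21a and Ccr9 lost their calls, and Cxcl14 was the 1 of the 4 that remained. Fibroblast markers fell in 3 of 4 beside Cxcl14, with sums of 1710 to 3640 CPM in SB525334 skin and 3120 to 5320 CPM in vehicle skin, and their part was not tested. On day 28, 19 rose and 0 fell, 35.8% of the members tested against 23.9% of all genes (12.2% higher and 11.6% lower). At an unadjusted p below 0.05, 25 members passed, and DESeq2 called 20. The 19 were 9 ligands and 10 receptors, every one with the same sign on both plates, and the median log2 fold change of the members was 0.45, against 0.00 over all genes.

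The largest of these was Cxcl5, at 2.63 ± 0.71, beside 4.29 ± 0.95 for bleomycin over PBS on that day. Ccl6 and Ccl9 rose by 1.36 ± 0.28 and 1.11 ± 0.24, beside 0.35 ± 0.28 and 0.25 ± 0.24. The CCR4 ligands Ccl17 and Ccl22 rose by 1.11 ± 0.43 and 0.84 ± 0.27, Ccl19 by 0.87 ± 0.29, Ccl20 by 0.92 ± 0.28, Ccl11 by 0.72 ± 0.27 and Cx3cl1 by 0.37 ± 0.11. None of the 4 CCR2 ligands and neither CXCR3 ligand was called. Among the receptors, Ccr1, Ccr2 and Ccr3 rose by 1.05 ± 0.36, 0.98 ± 0.23 and 1.07 ± 0.33, Xcr1, a receptor of cross-presenting dendritic cells, by 0.95 ± 0.30, and Ccr4 and Ccr9 by 0.62 ± 0.22 and 0.53 ± 0.19. Cxcr2 had 3.40, 7.55 and 27.0 CPM in SB525334 skin, against 1.84, 3.82 and 5.97 CPM in vehicle skin, with overlap, and its rise of 1.27 ± 0.47 lost its call without SB525334 replicate 8, at 0.97 ± 0.47. Ccl17 lost its call without that library too. Ackr2 had 8.02, 12.4 and 14.6 CPM in SB525334 skin, against 6.40, 6.91 and 8.93 CPM in vehicle skin. These groups overlapped slightly, at 0.69 ± 0.25 (edgeR adjusted p = 0.0337), and Ackr4 rose by 0.55 ± 0.21.

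Monocyte markers, such as Ly6c2, Plac8 and Chil3, rose in 5 of 5 in the same comparison, with sums of 366 to 560 CPM in SB525334 skin and 238 to 431 CPM in vehicle skin. Macrophage markers rose in 2 of 6, with sums of 1450 to 2380 CPM in SB525334 skin and 1090 to 1600 CPM in vehicle skin, and neutrophil markers in 0 of 4 tested. Of the alveolar macrophage list, which shares Chil3 with the monocyte list, 4 of 5 rose. That list is meant for lung and is no measure of a cell type in skin. Fibroblast markers fell in 3 of 4, with sums of 3090 to 5510 CPM in SB525334 skin and 6180 to 7310 CPM in vehicle skin. None of the monocyte, macrophage or fibroblast markers was at 0 throughout a group, and the part of these cells in the rise of the members was not tested.

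**Figure D4:**
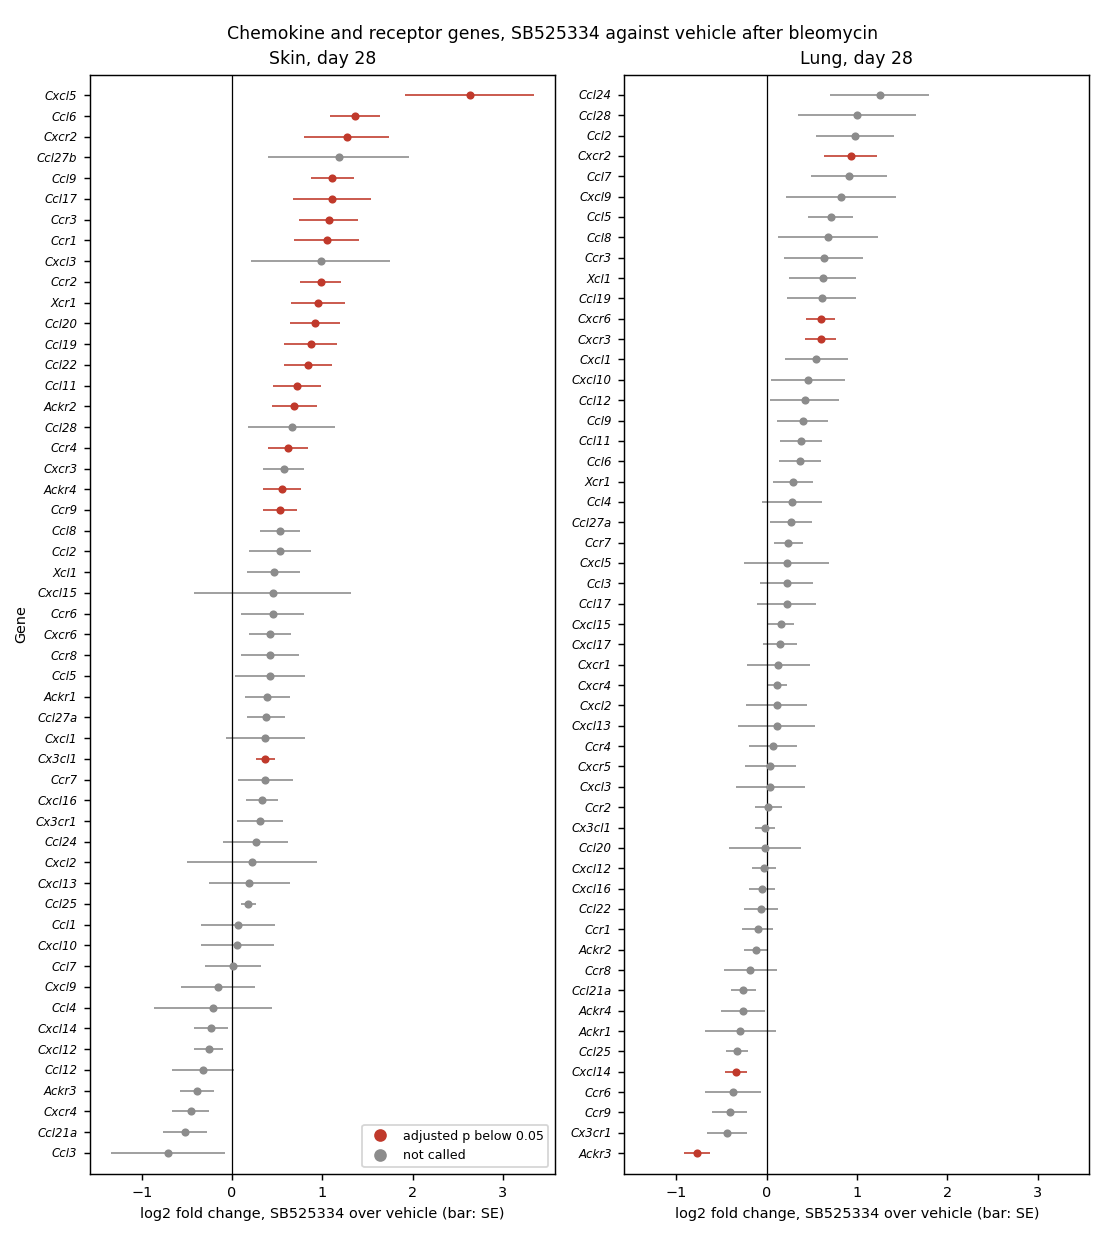
Log2 fold changes (points) with standard errors (bars) of members for SB525334 over vehicle on day 28, skin on the left and lung on the right, with called members in red and the others in grey. The called skin members lie to the right of 0, between 0.37 and 2.63, and those of lung lie on both sides, between -0.77 and 0.93.

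Whether the response on day 42 differed from that at the end of the injections was tested as a difference of log2 fold changes, day 42 minus day 14. In lung 2 members were higher and 6 lower, 14.8% against 15.3% of all genes (10.7% higher and 4.67% lower). That share was close to the background. Cxcl17 differed by -1.27 ± 0.26, Ccr1 by -0.87 ± 0.24, Ccl17 by -1.68 ± 0.46, Ccl11 by -1.0 ± 0.31, Ccl2 by -1.81 ± 0.62 and Ccl3 by -1.16 ± 0.41, and Xcr1 by 1.37 ± 0.31. Ccl2 came to -2.49 ± 0.60 without PBS day 14 replicate 3. Ccl19 differed by 1.59 ± 0.52 with bleomycin day 42 replicate 1, and by 0.23 ± 0.38 without it. Ccl3 also lost its call without that library, and Cxcl13 was called, at -1.52 ± 0.50 against -0.52 with it. The difference of Ccr2 was -0.41 ± 0.21, not called.

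In skin the same contrast called 12 members higher and 23 lower, 66.0% against 50.9% of all genes (23.0% higher and 27.9% lower). The neutrophil attractants stood out in size, with -6.88 ± 1.18 for Cxcl2 and -7.09 ± 1.46 for Cxcl3, and Ccl4, Ccl3 and Cxcr2 differed by -4.78 ± 1.02, -4.40 ± 0.99 and -3.54 ± 0.67. Without bleomycin day 14 replicate 6 these were -5.41 ± 1.07 for Cxcl2, -5.99 ± 1.35 for Cxcl3, -3.17 ± 0.89 for Ccl4 and -3.08 ± 0.89 for Ccl3, all still called. Ccl12, Ccl19, Ccl7, Cxcl1 and Cxcr4 lost their calls without it, and Ccr1 came to -1.18 ± 0.45, against -1.85 ± 0.50 with it. Without PBS day 14 replicate 4, Cxcl10 came to -3.92 ± 0.51, against -2.97 ± 0.56 with it, and Ccl17 was no longer called. Of the members that had fallen on day 14, Cxcl12 differed by 1.61 ± 0.22, Ackr3 by 1.55 ± 0.26, Ackr2 by 1.80 ± 0.34, Ccl24 by 2.78 ± 0.50 and Ccl21a by 1.67 ± 0.32.

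The bleomycin effects of skin and lung were compared directly, skin minus lung, in a fit of both tissues, read for the 51 members that passed the filter in each tissue. Lung and skin libraries were treated as independent, because the labels do not say which came from one mouse. On day 14, 12 members were higher in skin and 13 lower, 49.0% against 33.4% of the 14943 genes that passed in each (15.5% higher and 17.9% lower). Cxcl2 differed by 9.06 ± 0.93, Cxcl3 by 8.37 ± 0.92, Ccl4 by 5.56 ± 0.80, Cxcl5 by 5.51 ± 1.15, Ccl3 by 4.94 ± 0.76 and Cxcr2 by 3.78 ± 0.54. Ccr7 differed by 2.85 ± 0.33 and Cxcr4 by 1.82 ± 0.23, beside lung values of -0.25 ± 0.15 (not called) and -0.37 ± 0.10. In the other direction Ackr1 differed by -4.82 ± 0.47, Cxcl13 by -2.99 ± 0.58, Ccl11 by -2.75 ± 0.35, Ackr3 by -1.96 ± 0.23, Ackr2 by -1.53 ± 0.27, Ccl9 by -1.73 ± 0.36 and Cxcl12 by -1.44 ± 0.20. The differences of Cxcl10 and Ccr2 were -0.02 ± 0.50 and 0.21 ± 0.27, and these were not called. On day 42, 3 were higher and 8 lower in skin, 21.6% against 12.2% of these genes (5.31% higher and 6.85% lower). Cxcl5 differed by 3.08 ± 0.97 and Cxcr4 by 0.84 ± 0.23, and Ackr1 by -2.92 ± 0.50, Cxcl13 by -3.42 ± 0.61, Ccl8 by -2.24 ± 0.62, Ccl19 by -2.20 ± 0.46, Cxcl9 by -2.17 ± 0.74 and Cxcl10 by -1.78 ± 0.58. Ccl19, Cxcl9 and Cxcl10 lost this call without the 18 lung and 6 skin libraries set apart above. The differences of Ackr1 are uncertain, because it shares exon sequence with Cadm3. Cadm3 changed by -2.80 ± 0.31 in skin and -0.39 ± 0.37 in lung on day 14, and by -0.97 ± 0.29 and 1.04 ± 0.38 on day 42.

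**Figure D5:**
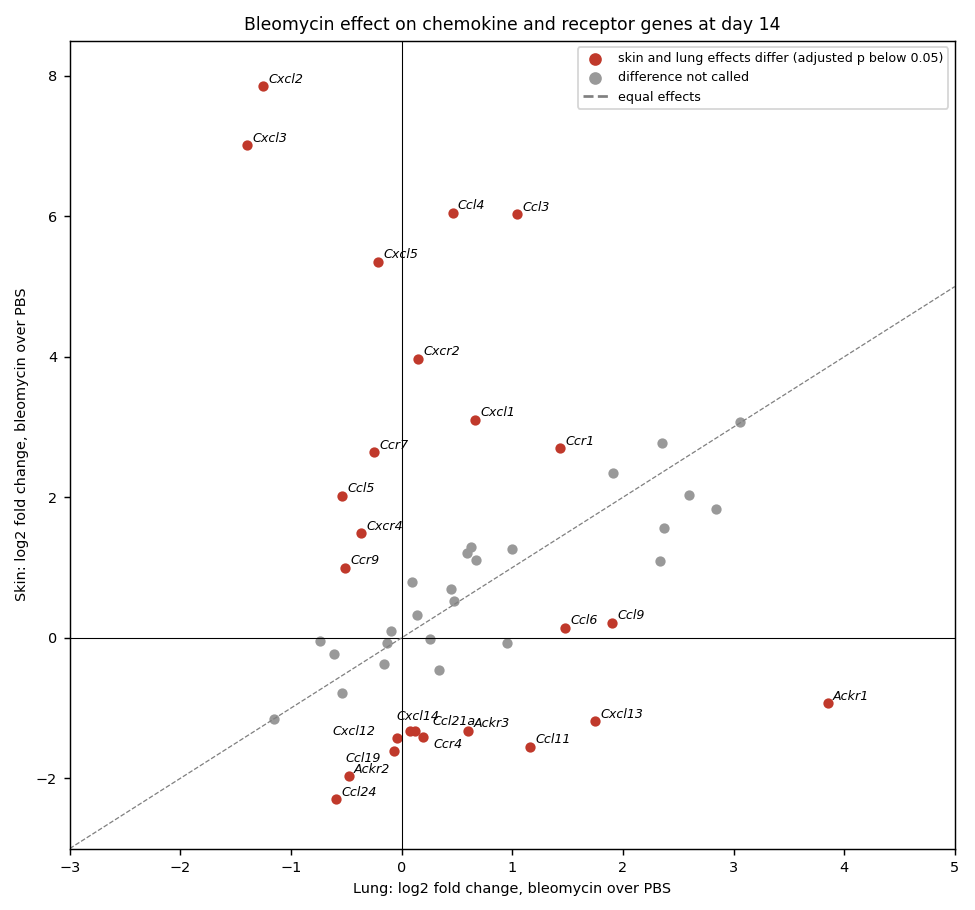
Log2 fold change of bleomycin over PBS on day 14 in skin (vertical axis) against lung (horizontal axis), with points for members tested in both tissues, red where the difference between tissues was called. Cxcl2 and Cxcl3 lie at the upper left, Ackr1 at the lower right, and Cxcl10 on the dashed line of equal effects. The place of Ackr1 is uncertain, because it shares exon sequence with Cadm3.

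Other genes of chemokine signalling, a list of 45 of which 44 were tested in each tissue, were counted beside the members. In skin 21 rose and 3 fell on day 7, 24 and 5 on day 14, 28 and 2 on day 21, 8 and 4 on day 28, and 2 and 0 on day 42. These were 54.5%, 65.9%, 68.2%, 27.3% and 4.55% of the list, against 46.2%, 59.6%, 41.2%, 24.3% and 10.2% of all genes. In lung 7 and 7, 9 and 10, 10 and 12, 5 and 12, and 8 and 6 rose and fell on these days. These were 31.8%, 43.2%, 50.0%, 38.6% and 31.8% of the list, against 31.7%, 46.4%, 35.3%, 38.1% and 19.4% of all genes, so the shares of days 7 and 28 were close to the background and that of day 14 was below it. Under SB525334, 17 rose and 1 fell in skin on day 28, 40.9% of the list against 23.9%. Rgs16, an inhibitor of G protein signalling, changed in skin by 1.97 ± 0.22 on day 14. Dpp4, a protease that trims and inactivates several chemokines, changed by -1.46 ± 0.16 in skin and -0.70 ± 0.09 in lung on day 14. Itgb2, the integrin chain that leukocytes use to adhere, changed by 1.08 ± 0.13 in lung on that day, Elmo1, which links receptors to the actin skeleton, by -0.75 ± 0.09, and Ccrl2, an atypical chemoattractant receptor, by -0.71 ± 0.08. All of these were called.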

How the data were processed

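Bulk RNA was sequenced from 93 lung and 93 skin libraries of 24 groups, prepared with a stranded total RNA kit, per the labels' protocols. The authors deposited expected counts per gene; the submitters' processing notes name RSEM, edgeR and the build GRCm38, and no source used here states the aligner, the tool versions or the strand setting. A second deposited table holds log2 CPM of expressed protein-coding genes, plate-corrected by the authors, in which 55 of the 60 members are present. Of the deposited expected counts 83.7% were whole, no pair of libraries was identical, and the 22095 gene IDs were named by GENCODE M21, which held 21852 of them. The precision of each value is limited by totals of 4.79 to 43.07 M counts per library.

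The counts were rounded to whole numbers, filtered with filterByExpr by group and scaled by TMM. Each tissue was fitted with all its 12 groups and plate as a covariate, by edgeR's quasi-likelihood test (edgeR 4.0.16, limma 3.58.1, R 4.3.3), with Benjamini-Hochberg adjustment over all genes tested and calls at 0.05. Standard errors were taken as the size of the log2 fold change divided by the square root of F. CPM values were computed here from the deposited counts, with TMM scaling. Differences between days used the same fit, and differences between tissues a fit of both tissues, read for genes that passed the filter in each. The steps were tested on simulated data.

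The members, gene lists and role groups were chosen with earlier results of these data known. Values per library are given for at most 8 members per tissue, those with the smallest p over the bleomycin or SB525334 comparisons; 7 per tissue are given, and a few genes are not reported here. Of the chemokine signalling list, at most 6 genes per tissue with the smallest p are named. Eda2r, Ccng1, Gdf15 and the genes that overlap members were chosen after their values were seen.

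Alternatives were RLE size factors, no filter, DESeq2 1.42.0, the deposited log2 values with limma, no plate term, the 2 groups alone and a replicate block. Added after seeing the data were fits without single libraries and without 18 lung and 6 skin libraries. These libraries were those with at least 1% of counts in Gm10800, at least 5% in ribosomal protein genes, or summed markers of at least 100 CPM for epidermis in lung, 1000 CPM for liver in lung or 100 CPM for lung epithelium in skin.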

Additional observations from a re-analysis of the deposited data

Results flagged for a closer look

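Gaps within a group were tested for 7 members of each tissue, in 168 sets of values of 1 member in 1 group. In 32 cases a library lay apart from its group by more than Dixon's 95% critical value. Its chance rate of about 1 in 20 holds for independent values with a normal spread. Here the same libraries recur across members and CPM was used without logs, so that rate is no standard for the 32 cases. In lung, PBS day 28 replicate 6 stood above its group for Ccr1 at 38.8 CPM (the others 11.6 to 20.1) and Cxcl10 at 19.0 CPM (0.564 to 1.57). PBS day 14 replicate 3 stood above its group for Ccl9 at 67.3 CPM (15.3 to 26.9). SB525334 day 28 replicate 2 stood above its group for Ccl9 at 411.0 CPM (88.0 to 218) and Cxcl10 at 14.9 CPM (3.22 to 8.67). Bleomycin day 42 replicate 1, the library with liver transcripts, was low for Cxcl17 at 5.9 CPM (14.9 to 20.7) and high for Cxcl10 at 8.89 CPM (1.76 to 4.86). Single lung values apart were Ccr1 at 23.5 CPM in SB525334 day 21 replicate 3 and Cxcl17 at 39.4 CPM in PBS day 28 replicate 2. The others were Cxcl10 at 2.11 CPM in PBS day 21 replicate 4 and at 2.58 CPM in PBS day 7 replicate 4, and Ccr2 at 77.4 CPM in PBS day 7 replicate 8.

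In skin, bleomycin day 14 replicate 6, which had the most neutrophil marker RNA of its group, stood above it for Cxcl2 at 447.0 CPM (0.874 to 68.5), Cxcr2 at 50.2 CPM (7.87 to 24.4), Ccl3 at 211.0 CPM (2.08 to 33.5) and Ccl4 at 131.0 CPM (1.41 to 13). SB525334 day 21 replicate 8, with 692 CPM of summed neutrophil markers (8.01 to 80.3 in the others), stood above its group for the same genes, at 58.1 CPM for Cxcl2, 38.0 for Cxcr2, 31.5 for Ccl3 and 18.2 for Ccl4. Bleomycin day 21 replicate 4, with 324 CPM of these markers (2.26 to 32.6), did so for Cxcl2 at 27.8 CPM, Cxcr2 at 40.5 CPM and Ccl4 at 8.45 CPM. PBS day 14 replicate 4 stood apart for Cxcl12 at 78.7 CPM (101 to 119), Cxcl2 at 0.894 CPM, Ccl3 at 1.32 CPM and Ccl4 at 1.18 CPM. Single skin values apart were Ccr7 at 4.47 CPM in bleomycin day 42 replicate 4 and Ccl3 at 7.84 CPM in SB525334 day 28 replicate 7. Cxcr2 stood apart at 27.0 CPM in SB525334 day 28 replicate 8, at 3.91 CPM in PBS day 28 replicate 1 and at 5.0 CPM in PBS day 7 replicate 7. The part of neutrophils in these values was not tested.

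The bleomycin effect of day 42 differed from that of day 14, by edgeR's test of the difference itself, for Cxcl17 (-1.27) and Ccr1 (-0.87) in lung. In skin it differed for Cxcl12 (1.61), Cxcl2 (-6.88), Ackr2 (1.80), Cxcr2 (-3.54), Ccr7 (-2.05), Ccl4 (-4.78) and Ccl3 (-4.40). The effect in skin minus that in lung on day 14 differed for Ackr1 (-4.82), Cxcl2 (9.06), Ccr7 (2.85), Cxcl12 (-1.44), Cxcr2 (3.78), Ccl4 (5.56), Ccl3 (4.94), Ackr2 (-1.53), Ccl9 (-1.73) and Ccr1 (1.23), all on the log2 scale. On day 42 it differed for Ackr1 (-2.92) and Cxcl10 (-1.78). The Ackr1 values are uncertain, because Ackr1 shares exon sequence with Cadm3.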

How the results depend on the processing

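Of 3215 values of single members under the alternatives, 3023 kept their direction and call, 192 kept their direction but were no longer called, and 0 changed sign among the called ones. Of 155 counts of called members, 145 were within 1.5 times the reported count. With the 2 groups alone, 30 members were called in lung on day 7, 0 in lung on day 28 (15 at an unadjusted p below 0.05, and 22 by DESeq2 on all groups), 6 in lung under SB525334 on day 21 and 0 in lung under SB525334 on day 28 (13 at an unadjusted p below 0.05, and 6 by DESeq2). This alternative estimates the spread from the 2 groups only. It called more members than the main fit in some comparisons and fewer in others, and the cause was not tested. Without the 18 lung and 6 skin libraries, 2 members were called in lung under SB525334 on day 21, 1 on day 28, 2 in skin under SB525334 on day 21, and 15 in lung for day 42 minus day 14. The deposited log2 values gave 12 in skin under SB525334 on day 28, and the cause was not tested. Leaving out single libraries, counts lay between 7 and 8 for lung day 42 minus day 14, 30 and 35 for the same contrast in skin, 40 and 41 in skin on day 14, and 3 and 4 in skin under SB525334 on day 21. They came to 34 in lung on day 14, 26 on day 28 and 18 on day 42, to 4 in lung under SB525334 on day 28, and to 33 in skin on day 7, 31 on day 21 and 18 under SB525334 on day 28. With the replicate number as a block, 7 members were called for skin minus lung on day 42, and 20 single calls were lost in all. That fit used the groups of days 14 and 42 only. Deviations of libraries with the same replicate number had a median correlation of 0 in lung and -0.013 in skin (above 0.1 in 96 and 132 of 490 pairs). For lung and skin libraries of one group and number it was 0.014 (15 of 93 above 0.1), against 0.001 for other numbers. These correlations cannot tell whether a lung and a skin library came from one mouse. Low members such as Ackr1 in lung, with 40 counts in all over the PBS libraries of day 14, are limited by depth.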
